A study of Mus musculus with 12 samples.

Results

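The cytosolic ribosomal protein genes are the genes for the proteins that, with ribosomal RNA, build the ribosome of the cytosol. They were taken by name: every protein-coding gene whose symbol is Rpl or Rps followed by a number, with or without a final a, l or x, together with Rplp0, Rplp1, Rplp2, Rpsa and Fau. This gave 81 of the 50600 genes in the files, 32 for the small subunit and 49 for the large subunit, the stalk proteins included. Polyadenylated RNA of CD8+ T cells, the cytotoxic lymphocytes, had been sequenced from lymph nodes of male C57BL/6J mice aged 8 weeks and kept in constant darkness. Circadian time (CT) counts the hours of the animals' own cycle, and the 6 times sampled were CT2, CT6, CT10, CT14, CT18 and CT22. Each time was sampled on day 1 and on day 2, with 1 library each, and the series asks which transcripts follow the 24 h cycle. All 12 libraries carry the same strain, sex, tissue and cell label, with no other genotype or treatment named. The number of mice behind a library is not named in the labels, and p-values here cover the spread among these libraries, which may be technical in part.

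The ribosome reads messenger RNA on its small subunit and joins amino acids in the peptidyl transferase centre of its large subunit, with 1 copy of most of its proteins per particle. Ribosomal protein mRNAs are long-lived, short and abundant, and most begin with a 5′ terminal oligopyrimidine (TOP) tract, a C followed by further C or T bases at the cap. Through this tract the kinase mTOR and the RNA-binding protein LARP1 set how much of the mRNA is translated. In T lymphocytes ribosome production is low at rest and climbs when the cell is activated to divide.

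The start of the transcript is the feature that these mRNAs are known to share, so 9 start windows are shown for members named in the results. Each window runs over 30 bases of the GRCm38.p6 assembly on the sense strand, 10 before and 20 from the start annotated by RefSeq, and capitals mark a run of at least 5 pyrimidines that opens with C within 5 bases of that start.
Rps27, chr3:90213629-90213658, minus strand: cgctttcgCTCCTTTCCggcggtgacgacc
Rps24, chr14:24490668-24490697, plus strand: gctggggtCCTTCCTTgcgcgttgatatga
Rpl13a, chr7:45128726-45128755, minus strand: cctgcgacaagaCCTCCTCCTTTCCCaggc
Fau, chr19:6057937-6057966, plus strand: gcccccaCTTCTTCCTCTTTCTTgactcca
Rps6, chr4:86857348-86857377, minus strand: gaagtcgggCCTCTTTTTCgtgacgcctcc
Rplp2, chr7:141447641-141447670, plus strand: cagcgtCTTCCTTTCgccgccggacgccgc
Rpl11, chr4:136053374-136053403, minus strand: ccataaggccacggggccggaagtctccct
Rps7, chr12:28635934-28635963, minus strand: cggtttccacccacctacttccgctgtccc
Rplp0, chr5:115559457-115559486, plus strand: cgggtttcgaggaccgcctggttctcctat
The first 6 hold such a run and the last 3 do not. RefSeq windows were matched for 61 of the 81 members. The motif, a C followed by at least 4 bases that are each C or T on the sense strand, opened within 5 bases of the start in 29 of these 61 members (47.5%), against 21.2% of 27025 genes with a window. At the annotated base itself it opened in 14 members (23%), against 3.01% of all genes. Among the 10 genes with a window in a list of other known TOP mRNAs, such as the elongation factors, 4 (40%) held it within 5 bases. A match describes the letters at 1 annotated start and says nothing of the start used in these cells.

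Levels between genes were compared as TPM, the abundance of a transcript scaled to a fixed total per library, which takes transcript length into account. Of the 81 genes, 77 had a mean above 1000 TPM over the 12 libraries, and the median over all 81 was 3347 TPM. Together they held 27.7% to 33.2% of all TPM. The highest was Rps27 at 14054 ± 1165 TPM (SD, n = 12), a zinc-finger protein of the small subunit. Rps24, another small subunit protein, followed at 9973 ± 526 TPM, then Rpl13a of the large subunit at 9755 ± 582 TPM. These last 2 genes overlap in their ranges (9443 to 11391 and 9106 to 11321 TPM). Further down stood Rpl23a at 6815 ± 484 and Rps29 at 6664 ± 443 TPM (SD, n = 12), 2 genes whose ranges overlap as well. Rps27 therefore led in each of the 12 libraries, between 13100 and 17459 TPM. Rps24 and Rpl13a lay above Rpl23a (6363 to 8190 TPM) and Rps29 (5976 to 7734 TPM) without overlap, while within each of these pairs the order was not beyond their spread.

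**Figure D1:**
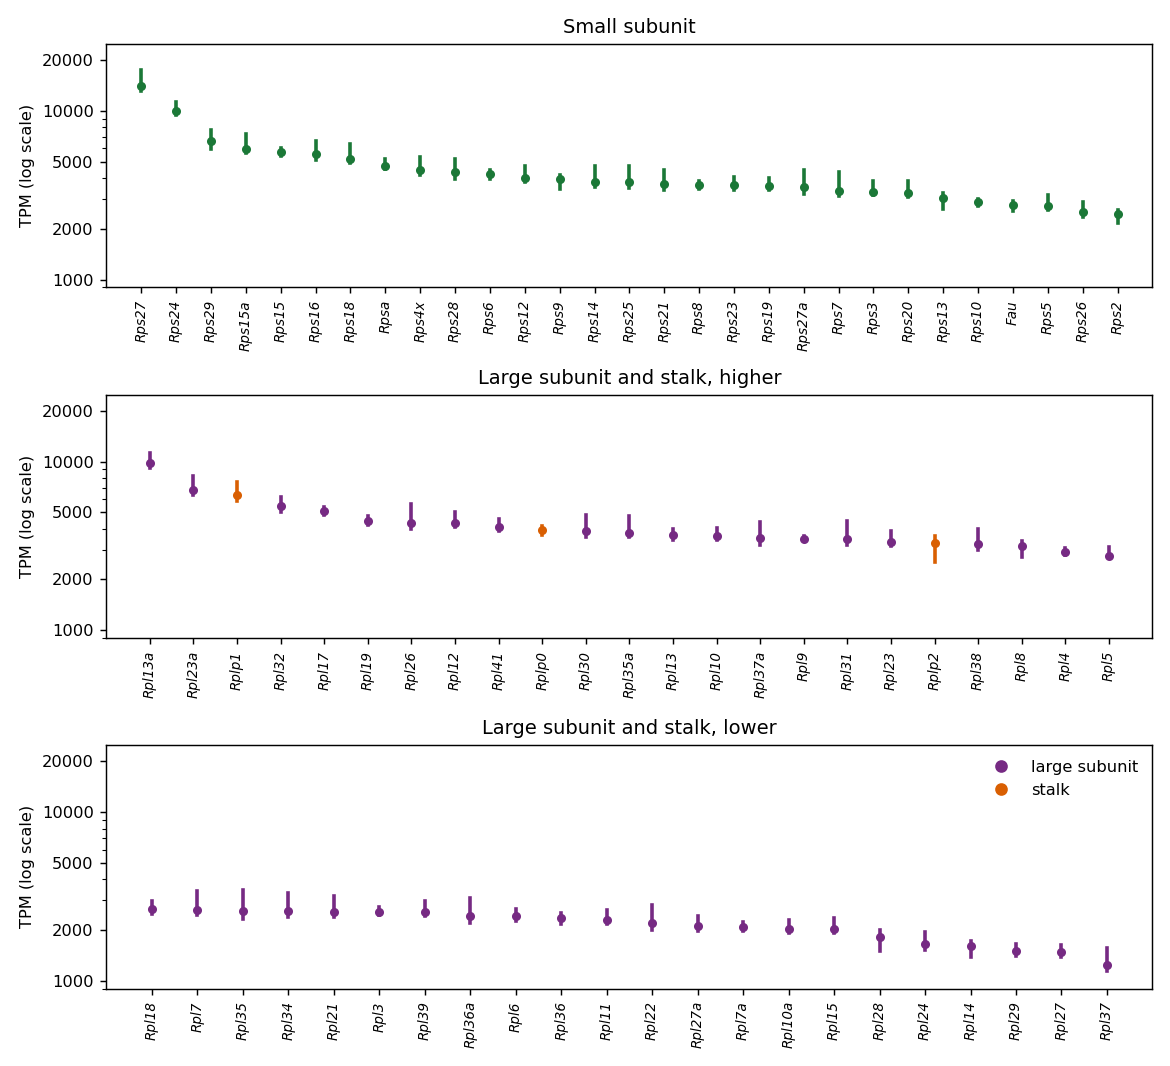
Level of ribosomal protein genes above 1000 TPM (y axis, log scale), with the mean of the 12 libraries as a point and the lowest to the highest library as a bar; green is the small subunit, purple the large subunit and orange the stalk. The 74 genes shown, of 77 at that level, reach up to Rps27, which ran from 13100 to 17459 TPM. Many bars extend further above the mean than below it. Rps27l, Rpl39l, Rpl3l and Rpl10l are below the axis.

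Genes of known special roles also lay above 1000 TPM and below Rps27. Rpsa, the small subunit protein also known as the laminin receptor, stood at 4713 ± 191 TPM, and Rps6, the target of the S6 kinases, at 4224 ± 164 TPM (SD, n = 12). Fau and Rps27a encode fusions of a ubiquitin-like protein or ubiquitin with a ribosomal protein and stood at 2769 ± 119 and 3525 ± 322 TPM. Rpl5 and Rpl11, which together with 5S RNA bind and restrain MDM2, the ubiquitin ligase of p53, stood at 2775 ± 131 and 2293 ± 125 TPM. The stalk, which recruits the translation factors with GTPase activity, had Rplp1 at 6319 ± 460, Rplp0 at 3913 ± 137 and Rplp2 at 3296 ± 300 TPM (SD, n = 12).

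The 4 low members were paralogs of other ribosomal protein genes. Rpl10l had 0 counts in each library, which allows up to 0.122 CPM (counts scaled to library size; 3 counts in the shallowest library, counting error only), and Rpl3l had 1 to 5 counts per library. Both are known from other tissues, testis and muscle respectively. Rpl39l reached 2.15 ± 0.75 TPM (SD, n = 12), with 15 to 43 counts per library. Rps27l, a p53-responsive paralog of Rps27, reached 127 ± 19.0 TPM, a small part of the level of Rps27. Of the 81 genes, 79 passed the filter on low counts, and Rpl10l and Rpl3l did not.

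The per-gene counts leave out reads that fit several places or overlap several genes, and ribosomal protein genes have many pseudogene copies. For each member the deposited expected count, which shares such reads out, was therefore set against the count. They lay within 20% of each other in 47 of the 79 genes, and the expected count was over 1.5 times the count in 13. Rpl24 was the extreme, with 33 to 57 counts per library and an expected count 433 times as large. Of its exonic bases, 47.0% are shared on the same strand with the overlapping gene Gm28037. For Rpl13a the ratio was 71.4, with 35.4% of its exonic bases shared with Gm45713 and small RNA genes. Rpl19 (2.51), Rpl15 (2.40) and Rps6 (2.27) came next, 3 genes of which the count held only part of the reads. Count-based values of Rpl24 and Rpl13a therefore describe a small remainder of their reads, and TPM is given beside the count-based results named for them.

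The data behind these values were deep, with 24689964 to 33497078 counts on genes per library. The T cell genes Cd8a, Cd8b1, Cd3e, Cd3d and Cd3g summed to between 3724 and 4658 CPM, Cd8a alone to 1406 ± 99.6 CPM (SD, n = 12), while Cd4 was at 41.5 ± 7.43 CPM. Markers of other cells were present at lower sums: 7 B cell genes at 134 to 259 CPM, 6 dendritic genes at 332 to 660 CPM and 10 monocyte and macrophage genes at 276 to 1199 CPM. The defining collagen genes of stroma (Col1a1, Col1a2, Col3a1) and the globin genes were near 0. In the same list of stroma and endothelium, Pdpn was near 0 too. Its endothelial genes were present, Pecam1 at 146 ± 13.0 CPM and Cdh5 at 5.47 ± 2.20 CPM (SD, n = 12). The whole list summed to between 135 and 174 CPM. The 2 libraries sharing a time differed beyond counting error: chi-square divided by its degrees of freedom ran from 3.07 to 40.2 over all genes, with the largest value at CT2. Bulk RNA cannot tell fewer cells of a type from less RNA per cell.

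The 81 genes together took 10.2% ± 0.95 of all counts on genes (SD, n = 12). The share was 13.0% in CT2 of day 1 and 9.80% in CT2 of day 2. It was 10.3% and 10.3% at CT6, 10.2% and 10.5% at CT10, 9.75% and 10.1% at CT14, 9.50% and 9.58% at CT18, and 9.93% and 9.40% at CT22, for day 1 and day 2 in turn. CT2 of day 1 stood apart above the other 11 libraries, which overlapped between days and ran from 9.40% to 10.5%. The 95% Wilson interval of a share reached at most 0.0124 percentage points to each side, counting error only. CT2 of day 1 was 1.31 times the median of the other 11 by counts, 1.37 times by summed CPM and 1.16 times by summed TPM. That library was known to be high when the gene set was chosen, so its values are a description with no test.

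**Figure D2:**
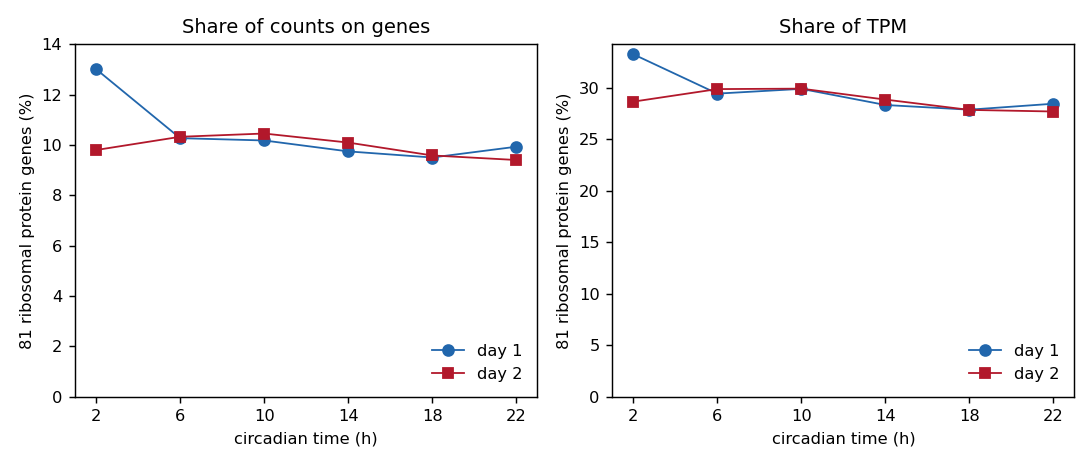
Share of counts on genes (left) and of TPM (right) held by the 81 ribosomal protein genes (y axes, percent, from 0) against circadian time (x axis, h), with 1 point per library; circles are day 1 and squares day 2. CT2 of day 1 lies at 13.0% of counts and 33.2% of TPM, and the other 11 libraries lie between 9.40% and 10.5% of counts and between 27.7% and 29.9% of TPM.

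Both subunits were high in CT2 of day 1. The small subunit genes summed to 62447 CPM there, against 42369 to 47502 CPM in the other 11 libraries, and the large subunit and stalk genes to 73304 CPM, against 50305 to 56618 CPM. The ratio of the small to the large sum was 0.852 in CT2 of day 1 and 0.835 to 0.846 in the others by CPM, and by TPM it was 0.899 against 0.895 to 0.906. The balance between the subunits was thus the highest of the 12 libraries by CPM, by a small margin, and inside the range of the others by TPM.

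Gene by gene, 78 of the 79 members lay above the median of the other 11 libraries in CT2 of day 1, against 48.9% of the 16396 genes tested. In 69 of the 79 it was the highest of the 12 libraries, against 19.1% of all tested genes. The median difference was 0.50 on the log2 scale of CPM (1.41-fold), against -0.01 over all tested genes. By TPM the members' median was 0.23 and the median of all tested genes moved to -0.20, so the members lay above it there too. By TPM 58 of the 79 members were highest in that library, against 6.3% of all tested genes, and 9 were lowest there, against 42.0%. Leaving the ribosomal protein genes out of the scaling gave a members' median of 0.53, and expected counts gave 0.49.

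Small subunit genes showed some of the largest differences. Rps7 had 2801 CPM in CT2 of day 1 and 1737 in CT2 of day 2. Its values were 1898 and 1755 at CT6, 1754 and 1803 at CT10, 1670 and 1780 at CT14, 1614 and 1650 at CT18, and 1785 and 1701 CPM at CT22 (day 1 and day 2 in turn). All 11 other libraries thus lay between 1614 and 1898 CPM, far below the CT2 library of day 1. Rps27a had 2025 CPM there against 1204 to 1389 CPM in the others. Rps27l had 63.9 CPM against 30.1 to 44.0 CPM, the largest difference of any member (0.70 log2). None of these 3 genes overlapped between CT2 of day 1 and the rest, and neither did the highly expressed Rps27 (3272 against 2000 to 2280 CPM), Rps24 (4115 against 2743 to 3029) and Rpsa (4023 against 2692 to 3026 CPM). Rps28, a small protein of the mRNA exit region, had 1004 against 623 to 758 CPM. Rps6 and Fau differed less, with 1359 and 911 CPM against medians of 1065 and 761 CPM in the others. By TPM both lay inside the range of the others, Rps6 at 4421 against 3974 to 4446 TPM and Fau at 2724 against 2564 to 2939 TPM.

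Among large subunit genes, Rpl26 had 1489 CPM in CT2 of day 1 against 869 to 1021 CPM in the others (0.65 log2). Rpl34 (1095 against 652 to 760 CPM), Rpl22 (1042 against 622 to 747 CPM), Rpl21 (2765 against 1643 to 1874 CPM), Rpl36a (912 against 537 to 632 CPM) and Rpl30 (1596 against 981 to 1119 CPM) followed. For the 2 genes of the 5S RNA complex, Rpl5 had 2408 against 1589 to 1773 CPM and Rpl11 1271 against 814 to 921 CPM. Rpl3, which lies close to the peptidyl transferase centre, had 2372 CPM against 1777 to 2070 CPM. By CPM all of these were highest in that library without overlap. By TPM this held for the others but not for Rpl3, which had 2640 TPM against 2442 to 2757 TPM.

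Some members did not share the difference in CPM. In all, 7 members of at least 10 CPM lay within 0.1 log2 of the median of the other libraries, among them Rplp2, Rpl8, Rps13, Rpl28, Rps9 and Rps2. The stalk protein gene Rplp2 had 944 CPM in CT2 of day 1 and 1056 in CT2 of day 2. At CT6 it had 918 and 1075, at CT10 1115 and 1086, at CT14 1040 and 1096, at CT18 999 and 975, and at CT22 1021 and 916 CPM. CT2 of day 1 was thus among its lower values and inside the range of the others by CPM. Rpl8 had 1991 CPM against 1779 to 2096 in the other 11, and Rps13 953 against 858 to 999 CPM, both inside the range. By TPM these genes were lowest in CT2 of day 1 without overlap. Rplp2 had 2528 against 3044 to 3638 TPM, Rpl8 2731 against 2987 to 3404, Rps13 2612 against 2896 to 3268 and Rpl28 1497 against 1714 to 1997 TPM, and Rps9 and Rps2 were lowest as well. The other stalk genes differed from Rplp2, since Rplp1 had 2543 against 1596 to 1827 CPM and Rplp0 3466 against 2642 to 3078 CPM, both above all other libraries by CPM. By TPM Rplp1 was still above them (7606 against 5855 to 6496 TPM), but Rplp0 lay inside the range and below the median of the others (3776 against 3691 to 4149 TPM, -0.05 log2). At the other end by CPM, 39 members of at least 10 CPM lay more than 0.5 log2 above the median.

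**Figure D3:**
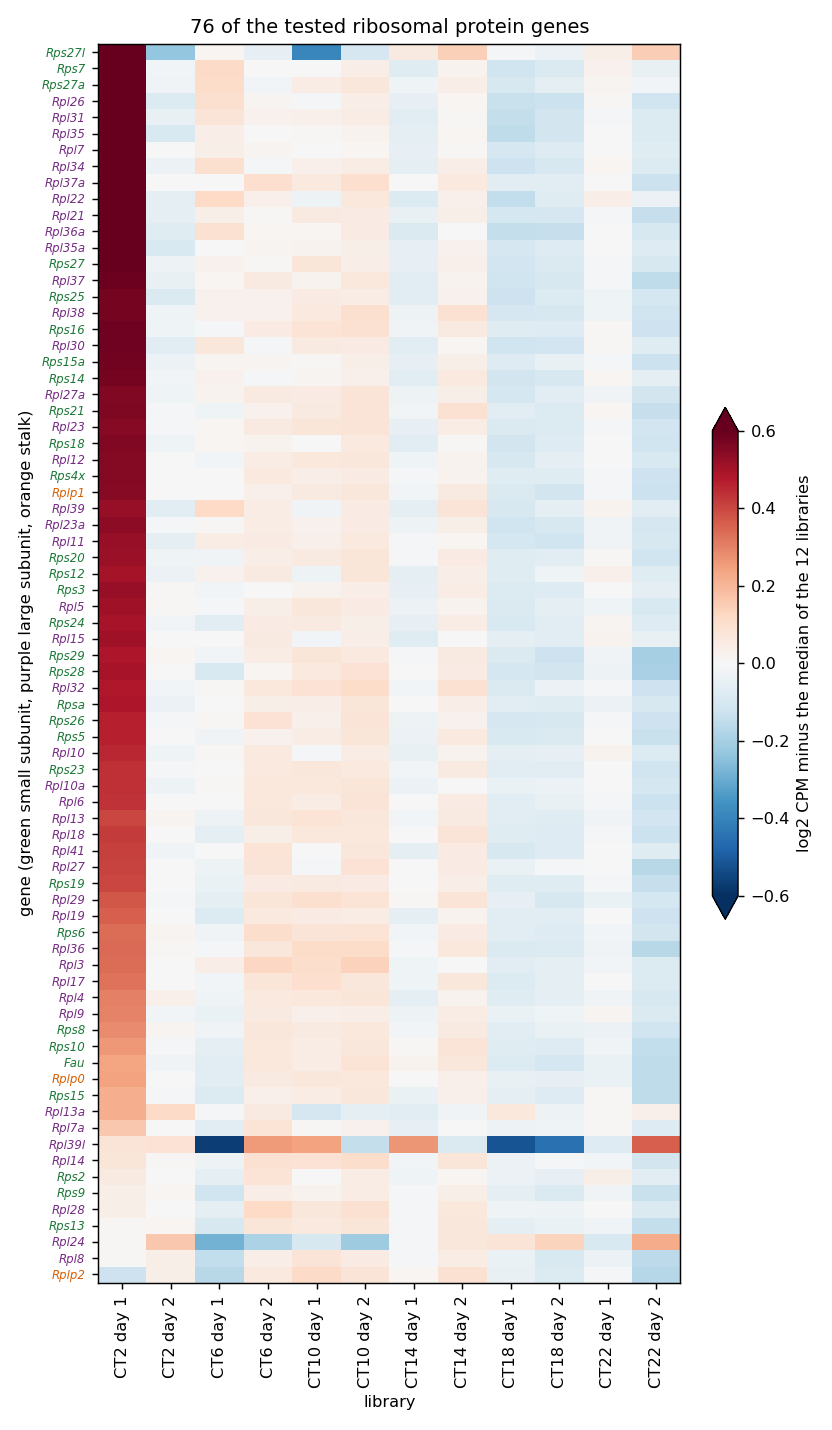
Difference in log2 CPM from the median of the 12 libraries (colour, red higher and blue lower) for 76 of the 79 tested ribosomal protein genes (rows, ordered by their value in CT2 of day 1) in each library (columns); gene names are green for the small subunit, purple for the large subunit and orange for the stalk. The column of CT2 of day 1 is red for nearly all genes, and the columns of CT18 and of CT22 of day 2 are pale blue for most.

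Short transcripts in general were higher in CT2 of day 1. The members are short, with a median effective length of 514 bases for those of at least 10 CPM, against 1972 bases over all tested genes. Among genes of at least 10 CPM up to 500 bases long, the median difference was 0.56 log2 for 37 members and 0.44 for 204 other genes. From 500 to 1000 bases it was 0.45 for 34 members and 0.19 for 793 other genes, and from 1000 to 1500 bases 0.39 for 6 members and 0.06 for 1270 other genes. For other genes above 5000 bases it was -0.13. The members' median lay above that of other genes in each of the 3 length bands that hold any, and the distance between them was smallest in the shortest band. Across the 77 members the difference had a Pearson correlation with length of -0.18 and a Spearman correlation of -0.27, and with GC content -0.37 and -0.38, given as a description since genes in 1 library are not replicates. The part of transcript length and GC content in the high sum was not tested.

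**Figure D4:**
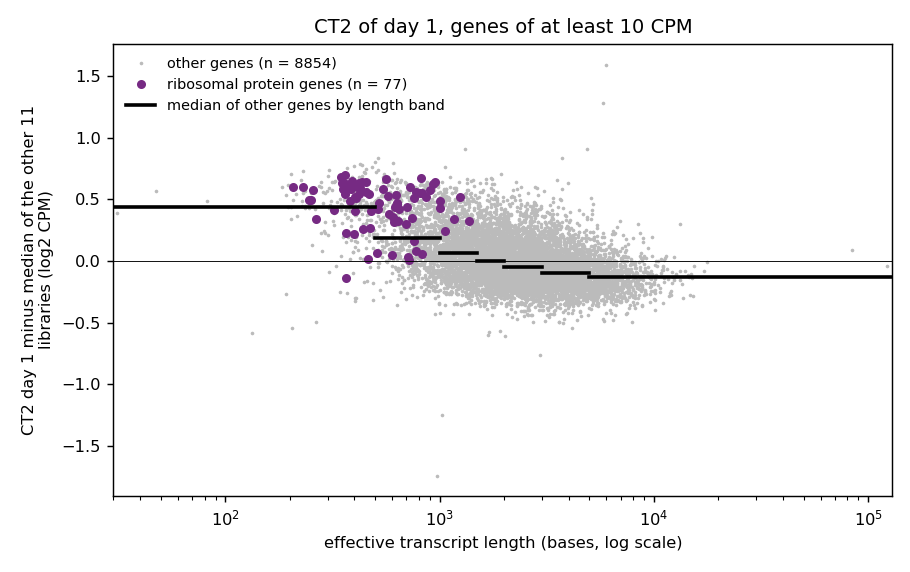
Difference in log2 CPM between CT2 of day 1 and the median of the other 11 libraries (y axis) against effective transcript length (x axis, bases, log scale) for genes of at least 10 CPM; purple points are 77 ribosomal protein genes, grey points 8854 other genes, of which 8 under 30 bases lie off the axis, and black lines the median of other genes in each length band. The black lines step down from 0.44 to -0.13, and most purple points lie above the line of their band.

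Other short, abundant groups were also high there. Of 73 tested nuclear genes of the respiratory chain, with a median effective length of 531 bases, 70 lay above the median of the other libraries, by a median of 0.43 log2, and their sum was 8180 CPM against 6230 to 6644 CPM. Genes of the mitochondrial ribosome had a median of 0.21 (68 of 77 above), and the 13 transcripts of the mitochondrial genome summed to 31645 CPM against 22229 to 25953 CPM. Lists of longer genes of the same pathway as the members differed less by median, but with wide ranges. The median was 0.11 for 16 other TOP mRNAs (-0.35 to 0.58) and 0.08 for 24 initiation factor genes (-0.20 to 0.60). It was 0.15 for 20 ribosome assembly genes (-0.13 to 0.54) and -0.10 for 15 regulators of TOP translation (-0.24 to 0.43 log2). Some measures of the library also stood apart. CT2 of day 1 had the highest share of fragments mapping to several places (9.63%, others 8.46% to 9.20%), the highest share of ambiguous fragments (1.52%, others 1.39% to 1.43%) and the lowest share in no feature (11.4%, others 12.4% to 13.9%). Its mean fragment length of 141 bases and its unmapped share of 6.73% lay inside the range of the others. Marker sums of B cells (243 CPM) and of monocytes and macrophages (821 CPM) were inside the range of the other libraries as well. Whether any of these measures bears on the high sum was not tested.

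Of 6 ribosomal protein genes that the symbol rule leaves out, 5 lay above the median of the other libraries in CT2 of day 1. Rps3a1, a small subunit protein, had 3738 CPM in CT2 of day 1 against a median of 2441 CPM in the others (0.61 log2), and Rpl36al and Rpl22l1 were 0.56 and 0.55 log2 above. Rack1, the scaffold protein on the small subunit, was 0.29 log2 above, and Rpl7l1 0.23.

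The 24 h test asked whether a wave of 24 h period fitted each gene over the 12 libraries. None of the 79 members passed at an adjusted p under 0.05 by the edgeR quasi-likelihood fit (Benjamini-Hochberg over all genes tested), where 0.0% of all 16396 genes passed, and 1 member had an unadjusted p under 0.05, against 13.3% of all genes. DESeq2 called 0 members as well, against 1.5% of all genes. That 1 member was Rpl13a (amplitude 0.092 ± 0.029 log2 from mean to peak, edgeR adjusted p = 0.31), whose count holds few of its reads. By log2 TPM its adjusted p was 0.58 with limma. Rpl3 was next with an amplitude of 0.11 ± 0.041 log2 and a peak at 5.76 h (edgeR adjusted p = 0.38), followed by Rpl36a (0.16 ± 0.067), Rpl22 (0.15 ± 0.064) and Rpl24 (0.21 ± 0.088 log2). The wave of Rpl24 rests on its few counts, and by log2 TPM its amplitude was 0.068 log2 (limma adjusted p = 0.63). Over all members the median amplitude was 0.11 log2, and 63 of 79 fitted peaks fell between 2 and 6 h, against 19.1% of all genes.

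The test over the 6 times, which allows any shape, passed 0 of the 79 members in edgeR, against 0.256% of all genes, and 1 member had an unadjusted p under 0.05, against 12.7%. DESeq2 passed 0 of them, against 3.15% of all genes. The smallest p after Rpl13a included those of Rps28, Rps29 and Rpl36 (edgeR adjusted p = 0.47, 0.49 and 0.49). The 2 libraries of CT2 lay far apart for these genes, with Rps29 at 1723 and 1239 CPM and Rps28 at 1004 and 712 CPM. Without CT2 of day 2, so that CT2 rested on the high library alone, 62 members passed this edgeR test, against 10.2% of all genes. With all 12 libraries but no filter on low counts, 46 passed, against 7.17% of all genes.

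Neither the day nor its interaction with the wave passed for any member. The fitted difference of day 2 from day 1 had a median of -0.08 log2 over the members. This fit included the high CT2 library of day 1. By share of counts, day 2 was lower at CT2 and CT22 and higher at CT6, CT10, CT14 and CT18. In edgeR 0 members passed (0.0% of all genes), and 0 had an unadjusted p under 0.05 (1.82% of all genes). DESeq2 also called 0, against 0.0366% of all genes. Rpl26 had the smallest p, at -0.15 ± 0.097 log2 (edgeR adjusted p = 1.0), followed by Rpl30, Rpl36a, Rpl21 and Rpl34, each at -0.13 log2. For the interaction 0 passed in edgeR (0.0% of all genes) and in DESeq2, and 5 had an unadjusted p under 0.05 in edgeR (4.44% of all genes), namely Rpl39, Rpl22, Rpl36a, Rpl26 and Rpl34.

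Without CT2 of day 1 the members' waves looked different. The fitted amplitude fell to a median of 0.066 log2, a 1.10-fold range from trough to peak, and the peaks moved from a median of 4.45 h to 8.59 h. Of the 79 members, 71 then peaked between 6 and 10 h, against 18.4% of all genes. No member passed in edgeR (0.0% of all genes), and 51 had an unadjusted p under 0.05, against 15.1% of all genes. DESeq2 on the same 11 libraries passed 16 members, against 2.72% of all genes, among them Rpl3, Rpsa, Rpl36, Rpl27a, Rpl11, Rpl23, Rpl32, Rps26, Rpl38, Rpl5, Rps6, Rpl31, Rps4x, Rpl37a and Rpl23a. For the test over the remaining times DESeq2 passed 2 members, against 6.67% of all genes. For Rpl3 the amplitude was 0.093 log2, with a DESeq2 adjusted p of 0.00093 and an edgeR adjusted p of 0.18. Without both CT2 libraries edgeR passed 0 members (2.65% of all genes), the smallest adjusted p being 0.052 with edgeR, and 52 had an unadjusted p under 0.05, against 20.4% of all genes.

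**Figure D5:**
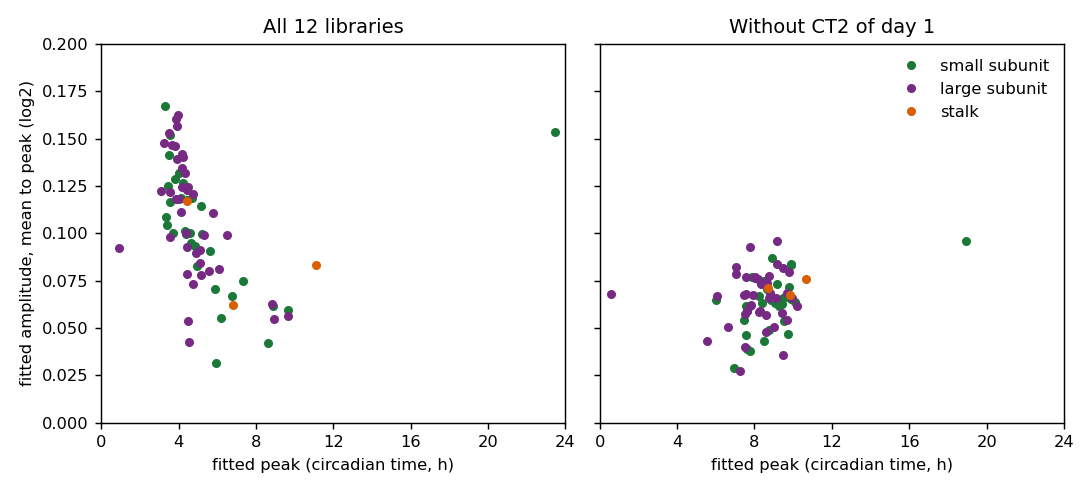
Fitted amplitude of the 24 h wave (y axis, log2 from mean to peak) against its fitted peak (x axis, circadian time in h) for the 77 ribosomal protein genes of at least 10 CPM, with all 12 libraries (left) and without CT2 of day 1 (right); green is the small subunit, purple the large subunit and orange the stalk. On the left most peaks fall between 2 and 6 h, and on the right most fall between 6 and 10 h at lower amplitudes.

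The values behind these waves were small differences. By CPM, the mean of CT6 and CT10 was above that of CT18 and CT22 on both days in 72 of the 79 members, against 32.0% of all genes. It was below on both days in Rpl24 and Rps27l, and below on day 1 alone in Rps2, Rps9, Rpl7a, Rpl27 and Rpl13a, with 1229 against 1253 CPM for Rps2. Rpl3 had 1937 and 2053 CPM at CT6 and 2027 and 2070 at CT10. It had 1848 and 1877 at CT14, 1792 and 1810 at CT18, 1861 and 1777 at CT22, and 2372 and 1886 CPM at CT2 (day 1 and day 2 in turn). The 4 libraries of CT6 and CT10 were thus above the other libraries except CT2 of day 1. Rpl36, a protein of the large subunit, had 485 and 513 CPM at CT6, 528 and 529 at CT10, 461 and 463 at CT18 and 483 and 436 at CT22, so that its 2 sets of times did not overlap, by a small margin. Rps6 had 1059 to 1157 CPM at CT6 and CT10 and 997 to 1063 CPM at CT18 and CT22, which overlapped.

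Set side by side after the values were seen, and so with no test, all 4 libraries of CT6 and CT10 lay above all 4 of CT18 and CT22 in 31 of the 79 members, against 5.75% of all tested genes. By TPM this held in 54 of the 79, against 4.37% of all genes. The opposite held by CPM for 1 member, Rpl24, against 5.71% of all genes, and by TPM for 0 members, against 5.04%. The mean was higher at CT6 and CT10 in 76 of 79 members, against 51.2% of all genes, and the median difference was 0.10 log2, alike in the small subunit (0.10) and in the large subunit with the stalk (0.11). Rpl3 and Rpl36 showed the largest such differences, 0.16 log2 each, and then Rps29 with 0.14 log2. Rpl24, Rps27l and Rpl13a were the 3 members with a lower mean by CPM, by -0.29, -0.16 and -0.04 log2. For Rpl24 and Rpl13a, whose counts are a small remainder, the direction turned by TPM. Rpl24 had 1645 to 1740 TPM at CT6 and CT10 against 1531 to 1601 at CT18 and CT22, and Rpl13a 9894 to 10040 against 9106 to 9653 TPM, without overlap in either gene. By TPM the mean was higher at CT6 and CT10 in 78 of 79 members, against 46.4% of all genes, and Rps27l was the exception (-0.18 log2). Of the 12 libraries CT22 of day 2 was the lowest for 50 members and CT18 of day 1 for 23.

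The same was counted in other gene groups by CPM, beside the 51.2% of all genes with a higher mean at CT6 and CT10. Among short genes, the mean was higher at CT6 and CT10 in 33 of 73 respiratory chain genes (median -0.01 log2) and in 40 of 77 genes of the mitochondrial ribosome (median 0.00), shares near that of all genes. Among the longer other TOP mRNAs, 13 of 16 were higher (median 0.06), the direction of most members. Of the 6 ribosomal protein genes outside the symbol rule 3 were higher (median 0.01), and of 24 initiation factor genes 10 (median -0.01). Without CT2 of day 1, fitted peaks between 6 and 10 h were found in 18.4% of all genes. They were found in 10 of 73 respiratory chain genes and 15 of 77 genes of the mitochondrial ribosome. Among other TOP mRNAs there were 6 of 16, and among initiation factor genes 4 of 24. The monocyte and macrophage markers ran the other way, with a sum of 276 to 701 CPM at CT6 and CT10 and of 748 to 1199 CPM at CT18 and CT22, and their part in the members' differences was not tested.

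The rest of the pathway gave 0 genes past the 24 h test in edgeR, against 0.0% of all genes. It was taken as 15 regulators of TOP translation, 24 initiation factors, 16 other TOP mRNAs and 20 assembly genes. In turn, 3, 2, 1 and 2 of these genes had an unadjusted p under 0.05 in edgeR, against 13.3% of all genes. The kinase gene Mtor itself had an amplitude of 0.048 log2 (edgeR adjusted p = 0.64), and Larp1 0.027 log2 (edgeR adjusted p = 0.89). Larp4 (0.10 log2, edgeR adjusted p = 0.25) had the smallest p among the regulators, then Tsc2 (0.11 log2, edgeR adjusted p = 0.32), a brake on mTOR. Among other TOP mRNAs it was Hnrnpa1, an RNA-binding protein, with 0.19 log2 (edgeR adjusted p = 0.24).

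How tightly the members were held is given by their spread over libraries. Over the 11 libraries other than CT2 of day 1, the coefficient of variation of CPM had a median of 4.52% over members of at least 10 CPM, against 12.4% when that library was counted in. Rps27l varied most among them, with 10.6% over the 11 libraries. In members with and without a pyrimidine run at the start, the difference in CT2 of day 1 had a median of 0.51 log2 in each (29 and 28 members), and the fitted peak without that library a median of 8.54 and 8.49 h, so the 2 sets of members lay close together in these readouts.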

How the data were processed

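RNA of 12 libraries was measured by polyA RNA-seq. Reads had been handled with bcl2fastq 2.19 and Trimmomatic 0.35, then STAR 2.5.1b and RSEM 1.2.28, all as named in the submitters' processing notes with the build GRCm38. For the annotation the sources used here give no name, and symbols and coordinates are those of GENCODE M21. The authors deposited read counts per gene, not normalised, and column 4, the stranded setting in which few fragments miss a gene, was used. The 4 rows naming no gene (29.3% to 31.2% of fragments) were left out. The authors also deposited RSEM expected counts, rounded here for edgeR, and TPM, scaled by the authors to length and library. The read counts per gene drop multimapping reads, which touches members with copies.

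Counts were tested with edgeR 4.0.16 in R 4.3.3 by quasi-likelihood, TMM scaling, filterByExpr (16396 genes kept) and Benjamini-Hochberg adjustment over all tested genes, with 0.05 as the limit for an adjusted p. DESeq2 1.42.0 and limma 3.58.1 served as alternatives. The tests were also run on simulated data, whose waves were larger than the members' median amplitude. That check therefore does not cover waves as small as those of most members. CPM uses TMM, and the CT2 differences add 0.5 before log2. Fitted tests were the 24 h wave, the 6 times, the day and its interaction with the wave, on all 12 libraries. Standard errors follow ± wherever an amplitude or log2 difference is given. A 24 h wave is a cosine and a sine, and its amplitude runs from mean to peak. Start windows come from RefSeq promoters.

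The replicate number is the collection day in the labels and therefore pairs libraries. Over 8931 genes, deviations from the group means correlated between the 15 pairs of times from -0.61 to 0.34 (median 0.08), 6 of them above 0.1.

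The members, the gene lists and the high CT2 library were chosen with earlier results of these data known. Named members are the 6 highest by TPM, those under 5 CPM, the 5 of smallest p in the first 3 tests, the 5 largest and 5 smallest CT2 differences, the 4 with the largest expected count over count, and Fau, Rps27a, the stalk genes, Rpsa, Rps6, Rpl5 and Rpl11; from the other lists the 2 of smallest 24 h p could be named. Others were named after their values were seen, as were the comparison of CT6 and CT10 with CT18 and CT22, the GC correlation and the tests without CT2 of day 1 by DESeq2. Protein sequences were not analysed here, and results for a few genes are not reported here.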

Additional observations from a re-analysis of the deposited data

Results flagged for a closer look

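The CT2 library of day 1 was known to be high when the genes were chosen, so its isolation is given as a description with no test. In day 1, that library lay far above the other 5 libraries of that day for the share of counts held by the ribosomal protein genes, and the gap to the next library was 0.781 of the whole range of the 6. A library counts as set apart where this gap is above Dixon's critical value for 6 values, used here as a cut-off only. The 6 libraries of a day come from different circadian times and are not replicates. By CPM, CT2 was set apart as the high library of day 1 in 63 of the 79 tested members, against 5.58% of all 16396 tested genes. In day 2 a library was set apart in 0 of the 79, against 5.98% of all tested genes. Since the members share that 1 library, these are not separate events. Among the small subunit genes named above, the gap took 0.837 of the range for Rpsa, 0.792 for Rps24, 0.780 for Rps27, 0.775 for Rps27a, 0.766 for Rps28, 0.761 for Rps7, 0.760 for Rps29, 0.681 for Rps6, 0.672 for Rps27l and 0.632 for Fau. Among the large subunit and stalk genes it took 0.870 for Rpl15, 0.820 for Rpl21, 0.817 for Rplp1, 0.815 for Rpl23a and 0.800 for Rpl11. It took 0.780 for Rpl5, 0.776 for Rpl30, 0.755 for Rpl26, 0.755 for Rpl34, 0.745 for Rpl36a, 0.737 for Rpl19 and 0.703 for Rpl22. Rpl15 and Rpsa thus had the most isolated high value of those named, and Fau the least.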

How the results depend on the processing

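Counts of members passing the 24 h, day and interaction tests were 0 under each alternative chosen at the outset (DESeq2, other scaling, no filter, expected counts, log2 TPM, each library left out); leaving out libraries gave 0 to 0 passing for each of the 3. For the test over the 6 times, leaving out each library gave 0 to 62 members, 62 of them without CT2 of day 2, and testing without a filter on low counts gave 46 (7.17% of 29911 genes); the cause was not tested. Without CT2 of day 1, a choice made after the data were seen, DESeq2 passed 16 members for the 24 h wave and 2 for the 6 times, while edgeR, expected counts and limma passed 0. With the day of collection as replicate block, which pairs the libraries of a day, 0 members passed the 24 h wave and 0 the 6 times, and no call changed. The ratio of CT2 of day 1 to the median of the others moved from 1.31 to 1.37 by summed CPM and 1.16 by summed TPM, and the members' median difference from 0.50 to 0.23 by TPM. By TPM, examined after the data were seen, the difference of CT2 of day 1 turned to -0.025 for Fau, -0.053 for Rplp0, -0.30 for Rpl28, -0.25 for Rpl39l, -0.23 for Rpl8 and -0.24 log2 for Rps13. Also by TPM, that of CT6 and CT10 from CT18 and CT22 turned to 0.094 for Rpl13a and 0.11 log2 for Rpl24, and 54 members in place of 31 did not overlap between these times; the cause was not tested. The share of members with a pyrimidine run moved from 47.5% to 23% at the annotated base and 63.9% within 10 bases. Amplitudes near 0.066 log2 are small. The median coefficient of variation of 4.52% without CT2 of day 1 was taken across all times. It therefore includes the differences that the wave fits, and cannot set these amplitudes against noise. The planned comparison of protein sequences was not run.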
